A study of Homo sapiens with 1536 samples.

Results

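A set of 5 inhibitors of the MAPK/ERK pathway was followed through a pooled screen of breast cancer cell lines. Dabrafenib and PLX4720 inhibit the kinase BRAF, and Trametinib, Selumetinib and PD318088 inhibit the kinases MEK1 and MEK2. They were 5 of 180 compounds in the series and were chosen by their named targets, and every well that carried 1 of them was used, 40 wells of 1536. Each compound was given at 10, 100, 1000 and 10000 nM for 72 h, in 2 wells per dose, and 96 wells that received DMSO served as the untreated group. Every well held the same mixture of 5 lines: the triple-negative lines MDA-MB-231, BT-20 and HCC-38, the ER+ line ZR-75-1 and the HER2+ line SKBR3. All wells, DMSO wells included, held cells with doxycycline-inducible Cas9 that had been kept in doxycycline for 7 days, and each line was a mixture of 12 sgRNA populations. Of these, 11 carried a guide against 1 gene, mostly of the stress responses, and sgNT stood for 5 non-targeting guides pooled as 1 population. The measurement was the relative cell number, in percent, of a line and sgRNA against the median of the DMSO wells, and the value of a line was the mean over its sgRNAs. For ZR-75-1, sgHSF1 and sgKEAP1 were left out, because their cell numbers varied too much in DMSO.

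In the MAPK/ERK cascade, active RAS proteins turn on the RAF kinases (ARAF, BRAF and CRAF), RAF phosphorylates MEK1 and MEK2, and MEK phosphorylates ERK1 and ERK2, which drive the cell cycle. BRAF inhibitors of this kind bind the ATP pocket and act best where BRAF itself carries its common activating mutation. In cells with normal BRAF and active RAS, they are known to pair and activate RAF dimers, so that ERK signaling can rise. MEK inhibitors bind beside the ATP pocket and block the step that all RAF kinases share. MDA-MB-231 is known for an activating mutation in BRAF, and SKBR3 for amplified HER2.

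The cells of a line were recognized by a barcode of 8 bases that the virus carrying the guide had left in the genome, and these barcodes are shown because every value below rests on counting them:
MDA-MB-231: taacagtt
ZR-75-1: atcactgg
BT-20: attgtcaa
HCC-38: tacagagg
SKBR3: cggtgacc
They are vector tags without a genome position, printed here in lower case, with no base marked.

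The 40 wells of the inhibitors held between 136900 and 1416671 reads, and the DMSO wells between 155067 and 986006. The 5 second wells at 1000 nM held between 136900 and 507576, and the other 35 between 308418 and 1416671. In each well, spike-in cells of another line, added at 5 known numbers, gave a standard curve that turned reads into cells. The r2 of these curves was at least 0.926 for the inhibitors and at least 0.932 for DMSO. Over the DMSO wells, the value of a line was 101.5% ± 10.9 in MDA-MB-231, 101.6% ± 14.3 in ZR-75-1, 101.2% ± 10.6 in BT-20, 101.8% ± 10.7 in HCC-38 and 100.9% ± 12.7 in SKBR3 (SD, n = 96). The 5 lines of a well deviated together: between replicate wells of the inhibitors, the differences of 2 lines correlated with r between 0.553 and 0.797 (10 pairs of lines, 20 points each, which share the standard curve of the well). A shift seen in all 5 lines thus rests on the number of wells, not on the number of lines. The 2 wells of a dose received the same dilution of compound, per the methods of the study, so that p-values measure only the spread between wells. Each plate of DMSO wells is labelled with 1 dose and 1 replicate, so that plate and dose cannot be told apart beyond the scaling to standards.

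At 10000 nM the MEK inhibitors left the fewest cells in MDA-MB-231 and ZR-75-1. Against DMSO, 24 of the 60 combinations of MEK inhibitor, line and dose fell (limma, adjusted p under 0.05 over all 3480). This was 40%, beside 32.5% of the 3480 combinations of all compounds with values. By compound, Trametinib fell in 12 of 20, Selumetinib in 9 of 20 and PD318088 in 3 of 20, the last below that background. For 6 of the 180 compounds there were too few reads for values. Of the 40 combinations of the BRAF inhibitors, 0 fell, also at an unadjusted p under 0.05. Without the first wells of each dose 15 combinations of the 5 inhibitors fell, and without the second 18. By dose, 0 of 15 MEK combinations fell at 10 nM (8.16% over all compounds at their lowest dose), 7 of 15 at 100 nM (20.9%), 5 of 15 at 1000 nM (35.3%) and 12 of 15 at 10000 nM (65.6%). The count at 1000 nM was thus near the background of all compounds. Some other compounds were given over a lower range, so that their dose levels are not all the same in nM. In MDA-MB-231, 7 of 12 combinations fell, beside 32% over all compounds in that line, and in ZR-75-1 6 of 12, beside 35.2%. In HCC-38 and BT-20 4 of 12 fell each, beside 32.2% and 29.9%, and in SKBR3 3 of 12, beside 33.2%, so that in these 3 lines the share was near that of all compounds or below it.

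**Figure D1:**
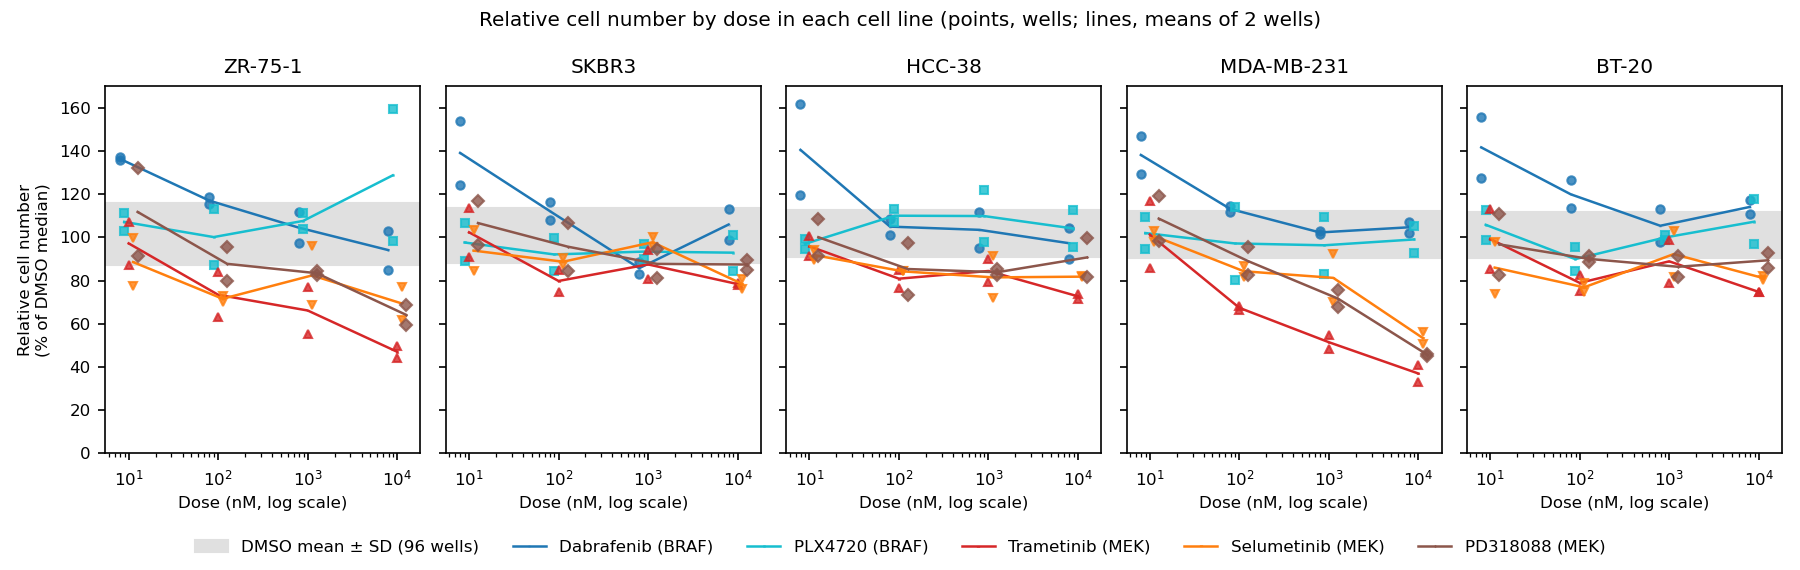
Relative cell number (percent of the DMSO median) against dose (nM, log scale) in the 5 cell lines, with a point for each well, a line through the means of 2 wells and a gray band for the mean ± SD of the 96 DMSO wells. The MEK inhibitors reach their lowest values in MDA-MB-231, between 33.2% and 56.1% at 10000 nM, and Dabrafenib lies above the DMSO band in all 5 lines at 10 nM.

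Trametinib, a MEK inhibitor used against melanoma with mutant BRAF, fell in 12 of its 20 combinations, the most of the 5 compounds. At 10000 nM its mean was the lowest of the 5 in every line. At lower doses other MEK inhibitors had the lower mean in some lines: Selumetinib in all 5 at 10 nM, in ZR-75-1 and BT-20 at 100 nM and in HCC-38 at 1000 nM, and PD318088 in BT-20 at 10 nM and in BT-20 and HCC-38 at 1000 nM, but none of these differences passed the test. In MDA-MB-231 its wells were at 116.7% and 85.9% at 10 nM, 68.4% and 66.4% at 100 nM, 48.2% and 54.8% at 1000 nM, and 40.8% and 33.2% at 10000 nM. Both wells lay below all 96 DMSO wells, whose lowest was 81.6%, from 100 nM on. The log2 change from DMSO was -0.58 ± 0.13 at 100 nM, -0.97 ± 0.13 at 1000 nM and -1.46 ± 0.13 at 10000 nM (SE, limma adjusted p = 4.65e-05, 2.18e-12 and 1.56e-25). At the highest dose the sgRNA populations of MDA-MB-231 ranged from 18.3% to 53.5% in the first well and from 16.1% to 63.5% in the second, so that all 12 were below 64% in both wells.

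In ZR-75-1, Trametinib left 83.9% and 62.9% of cells at 100 nM, 55.2% and 77.05% at 1000 nM, and 49.9% and 44.2% at 10000 nM. Both wells at 10000 nM, the first at 1000 nM and the second at 100 nM were below every DMSO well of this line, whose lowest was 64.3%. The log2 change at the highest dose was -1.10 ± 0.15 (SE, limma adjusted p = 3.21e-12). In the other lines the fall was shallower. At 10000 nM SKBR3 was at 79.04% and 77.7%, HCC-38 at 71.5% and 73.9%, and BT-20 at 74.6% and 74.9%, with log2 changes of -0.35, -0.48 and -0.43 (limma adjusted p = 0.0289, 0.000124 and 0.000351). All 5 lines fell at 100 nM and at 10000 nM, whereas at 1000 nM the fall passed the test in MDA-MB-231 and ZR-75-1 only. At 1000 nM the first and second wells were at 80.6% and 94.3% in SKBR3, 79.1% and 89.8% in HCC-38, and 78.8% and 98.98% in BT-20. In HCC-38 the adjusted p was 0.0596 (limma). The second of these wells is the one with 136900 reads, the fewest of the 40. For every inhibitor the second well at 1000 nM held the fewest reads of its wells, and the part of this depth in the values against DMSO was not tested.

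Selumetinib, a MEK inhibitor given for tumors that lack neurofibromin, fell against DMSO in 9 of its 20 combinations. In MDA-MB-231 its wells were at 86.8% and 81.8% at 100 nM, 70.1% and 92.4% at 1000 nM, and 50.7% and 56.1% at 10000 nM. The change at the highest dose was -0.92 ± 0.13 on the log2 scale (SE, limma adjusted p = 3.46e-11). In the other 4 lines at this dose the wells lay between 61.8% and 82%, and all 4 passed the test, ZR-75-1 with -0.54 ± 0.15 (SE, limma adjusted p = 0.00112). MDA-MB-231 and HCC-38 fell at 1000 nM as well (log2 -0.33 and -0.32, limma adjusted p = 0.041 and 0.0151), HCC-38 with wells at 71.7% and 91.2%. ZR-75-1 fell at 100 nM to 70.1% and 73.05%, and BT-20 to 79.1% and 74.7%. At 1000 nM neither passed the test, and the second wells were then the higher ones, at 96.1% in ZR-75-1 and 102.8% in BT-20, against 68.6% and 81.7% for the first.

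PD318088 fell in 3 of its 20 combinations, which lay in MDA-MB-231 and ZR-75-1. This share was below the 32.5% over all compounds. In MDA-MB-231 its wells were at 75.5% and 67.9% at 1000 nM and at 46.2% and 45.2% at 10000 nM, with log2 changes of -0.50 ± 0.13 and -1.14 ± 0.13 (SE, limma adjusted p = 0.000695 and 1.57e-16). In ZR-75-1 they were at 59.6% and 68.6% at 10000 nM (-0.65 ± 0.15, SE, limma adjusted p = 6.11e-05). In SKBR3, HCC-38 and BT-20 at 10000 nM the wells lay between 81.5% and 99.9%, and none passed the test (limma adjusted p between 0.256 and 0.313). Of the 8 wells of PD318088, 6 held a larger share of reads on combinations of barcodes that exist in no cell than any DMSO well, up to 2.34% against up to 0.924%, and the part of these reads in its values was not tested.

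No fall in cell number with the BRAF inhibitors passed the test at any dose. PLX4720 passed the test in 0 of 20 combinations, in either direction. In MDA-MB-231, the line with mutant BRAF, its wells were at 94.5% and 109.5%, 113.9% and 80.4%, 83.1% and 109.5%, and 92.9% and 105.1% at the 4 rising doses, and the log2 change at 10000 nM was -0.03 (95% interval -0.29 to 0.23). One well stood apart from its partner: in ZR-75-1 at 10000 nM the wells were at 98.1% and 159.2%, the second above the highest DMSO well of that line, 148.8%. In the other lines that second well was between 101.3% and 117.7%.

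Dabrafenib at 10 nM gave more cells than DMSO in all 5 lines, the 5 combinations of the inhibitors that rose. Over all compounds with values, 1.55% of combinations rose, and 2.18% at the lowest dose. The wells were at 146.8% and 129.4% in MDA-MB-231, 137.1% and 135.6% in ZR-75-1, 155.8% and 127.4% in BT-20, 161.5% and 119.4% in HCC-38, and 153.8% and 124.3% in SKBR3. The log2 changes were between 0.44 and 0.48 (limma adjusted p between 4.44e-05 and 0.0122). These 10 values come from 2 wells, and without the first wells of each dose 1 combination of the 5 inhibitors rose. In them the standards took 4.18% and 5.11% of reads, beside 4.52% to 7.10% in the DMSO wells, and the r2 of the first well's curve was 0.926, below that of every DMSO well; the part of the standards in the rise was not tested. At 10000 nM Dabrafenib was at 103.1% and 85.1% in ZR-75-1, 107.2% and 102.1% in MDA-MB-231, and between 90.05% and 117.4% in the other lines.

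To compare the classes at matched doses, the mean of the 3 MEK inhibitors was set against the mean of the 2 BRAF inhibitors in each line on the log2 scale. Class here means these compounds, which are not replicates of a class. The p-values of this and the later class comparisons do not measure the spread between compounds. The MEK class was lower in 16 of 20 combinations of line and dose (limma, adjusted p under 0.05 over the 20), and higher in 0. Without the second wells 10 were lower, and without the first 11. At 10000 nM the difference was -1.18 ± 0.12 in MDA-MB-231, where the 6 MEK wells lay between 33.2% and 56.1% and the 4 BRAF wells between 92.9% and 107.2%. In ZR-75-1 it was -0.87 ± 0.14, with MEK wells between 44.2% and 77.01% and BRAF wells between 85.1% and 159.2%. As folds, the MEK class left 2.27 times fewer cells in MDA-MB-231 and 1.83 times fewer in ZR-75-1 (limma adjusted p = 1.25e-20 and 2.53e-09). The difference was smaller in BT-20 (-0.44 ± 0.10), HCC-38 (-0.30 ± 0.10) and SKBR3 (-0.28 ± 0.12, SE, limma adjusted p = 5.85e-05, 0.00559 and 0.0306). Wells of the classes did not overlap in BT-20 at this dose and did in HCC-38 and SKBR3. Over the 20 combinations, they did not overlap in 6. For this count and the 16 lower combinations, no share over other groups of compounds was computed.

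At lower doses the class difference also held the high values of Dabrafenib. At 1000 nM it was -0.57 ± 0.12 in MDA-MB-231, -0.48 ± 0.14 in ZR-75-1, -0.35 ± 0.10 in HCC-38 and -0.21 ± 0.10 in BT-20 (SE, limma adjusted p = 1.62e-05, 0.00122, 0.00126 and 0.0453), while SKBR3 was at 0.02 ± 0.12. With PLX4720 as the only BRAF inhibitor, an alternative chosen after the data were seen, 8 of 20 combinations were lower, and at 10 nM the difference lay between -0.19 and 0.04 with none passing the test. At 10000 nM it was then -1.14 in MDA-MB-231 and -1.08 in ZR-75-1 (limma adjusted p = 2.14e-12 and 5.69e-09), but SKBR3 no longer passed (-0.19, adjusted p = 0.353). The value of ZR-75-1 rests on the PLX4720 wells at 98.1% and 159.2%, the second above every DMSO well. Dabrafenib lay above Trametinib, Selumetinib and PD318088 there by 1.00, 0.44 and 0.55, the 0.44 without passing. Without Trametinib the differences at 10000 nM were -1.04 in MDA-MB-231 and -0.70 in ZR-75-1 (limma adjusted p = 1.1e-13 and 2.69e-05), and SKBR3 and HCC-38 did not pass (adjusted p = 0.0745 and 0.0693).

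**Figure D2:**
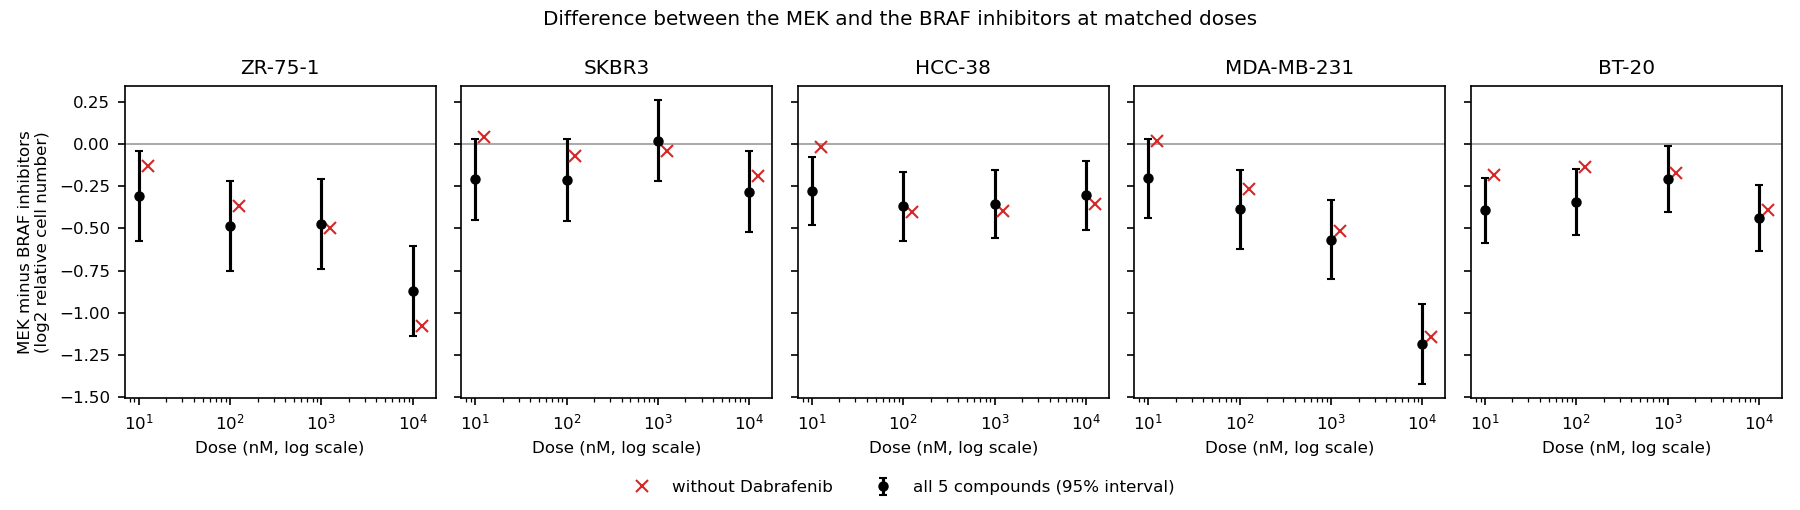
Mean of the MEK inhibitors minus mean of the BRAF inhibitors (log2 relative cell number) by dose (nM, log scale) in each line, with 95% intervals from limma, and crosses for the difference with PLX4720 as the only BRAF inhibitor. The points of MDA-MB-231 and ZR-75-1 go down with dose to -1.18 and -0.87, and at 10 nM the crosses lie near 0.

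Because the lines shared wells, the class difference of a line could be set against that of the other 4 lines within the same wells. At 10000 nM all 5 lines departed from the rest: MDA-MB-231 by -0.71 ± 0.07 and ZR-75-1 by -0.32 ± 0.10, and SKBR3 by 0.42 ± 0.08, HCC-38 by 0.39 ± 0.08 and BT-20 by 0.22 ± 0.06 (SE, limma, 20 tests, adjusted p at most 0.00347). At 1000 nM the difference in MDA-MB-231 was larger than in the other lines by -0.31 ± 0.07, and that in SKBR3 smaller by 0.42 ± 0.08 (limma adjusted p = 0.000108 and 2.86e-07). At 10 nM only BT-20 departed (-0.14, adjusted p = 0.0287). One line's departure enters the mean against which the others are set, so that these 5 values are not independent. Without PLX4720 the count of lower calls went from 4 to 2 and of higher calls from 6 to 3, and without Trametinib from 4 to 2 and from 6 to 5.

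The area under the dose curve (AUC) gives a single value per compound, line and replicate: the sum of the percentages at the 4 doses, with the outer doses at a weight of 0.5, so that untreated cells have 300. The MEK class was lower than the BRAF class in all 5 lines. The difference was largest in ZR-75-1, -96.6 ± 11.1, with means of 234.6 for the MEK and 331.2 for the BRAF inhibitors. MDA-MB-231 followed with -92.5 ± 9.45 and means of 222.8 and 315.3. In HCC-38 it was -68.3 ± 9.48 (means of 255.5 and 323.8), and in BT-20 -65.7 ± 8.18, with MEK values up to 280.8 and BRAF values from 291.8. SKBR3 had the smallest difference, -30.4 ± 9.19, with means of 270.2 and 300.6 (SE, limma, 5 tests, adjusted p at most 0.00113). In 4 of the lines all MEK values lay below all BRAF values, and in SKBR3 they overlapped. There the BRAF mean held 320.4 for Dabrafenib and 280.7 for PLX4720. Trametinib, Selumetinib and PD318088 were at 257.6, 272.6 and 280.4 in SKBR3, so that PLX4720 lay next to PD318088. The AUC difference without Dabrafenib is not given here, nor a share over other groups of compounds.

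Ranked from the lowest AUC among all compounds with values, Trametinib was at place 38 in MDA-MB-231, where its replicates were at 195.4 and 180.7 and the median of all compounds at 264.5. In ZR-75-1 it was at 217.6 and 205.7, place 43, beside a median of 256.6. In the 3 remaining lines its mean was between 249.5 and 257.6. Selumetinib was at place 62 in both MDA-MB-231 (mean 242.5) and ZR-75-1 (232.9), 57 in BT-20 (252.7, below the 254.8 of Trametinib at place 60) and 61 in HCC-38 (252.5), and had its highest mean in SKBR3 (272.6). PD318088 was at place 58 in MDA-MB-231 (237.8), 74 in both BT-20 (269.5) and HCC-38 (264.6) and 93 in ZR-75-1 (259.1), and had its highest mean in SKBR3 (280.4). By place, these 2 compounds thus did not favor ZR-75-1 over BT-20 and HCC-38. Dabrafenib was at the other end, with means of 320.4 to 353.1 and place 160 or higher in every line. PLX4720 reached 325.6 in ZR-75-1 and 320.4 in HCC-38, and lay between 280.7 and 296.3 in the others.

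**Figure D3:**
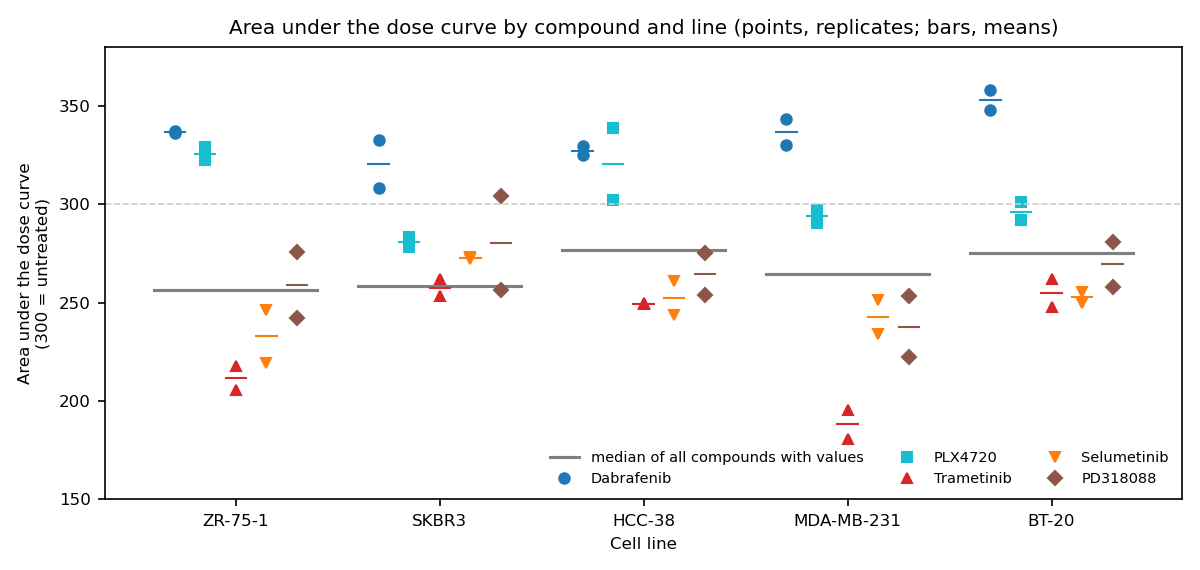
Area under the dose curve (300 for untreated cells, dashed) of the 5 compounds in each line, with a point per replicate, a short bar for the mean and a long gray bar for the median of all compounds with values. Trametinib lies lowest in MDA-MB-231 (195.4 and 180.7) and ZR-75-1 (217.6 and 205.7), and Dabrafenib above 300 in every line.

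When the AUC of a line was set against the mean of the other 4, Trametinib was the 1 compound of the 5 that passed the test. It was lower in MDA-MB-231 by -55.4 ± 7.36 and in ZR-75-1 by -25.8 ± 7.36, and higher in SKBR3 by 31.6 ± 7.36 and in BT-20 by 28.1 ± 7.36 (SE, limma, adjusted p = 0.00126, 0.036, 0.0153 and 0.0252 over 870 tests). Of the 25 combinations of inhibitor and line, 2 were thus lower and 2 higher, beside 11.1% lower and 10.9% higher over all compounds. All lines of a replicate come from the same wells, and with the replicate as a block 5 of 25 were lower and 7 higher, beside 20.5% and 18.7% over all compounds. The block added, on the lower side, PD318088 in MDA-MB-231 (-30.6 ± 6.11), Selumetinib in ZR-75-1 (-22.1 ± 6.04) and PLX4720 in SKBR3 (-28.4 ± 7.93, SE, limma adjusted p = 0.00372, 0.017 and 0.0189). On the higher side it added Selumetinib and PD318088 in SKBR3 (27.4 and 22.7), Trametinib in HCC-38 (21.5), PLX4720 in ZR-75-1 (27.8) and Dabrafenib in BT-20 (22.8). All 3 MEK inhibitors were then above the other lines in SKBR3. Selumetinib in MDA-MB-231 was at -10.2 and did not pass in either fit.

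The 10 pairs of compounds were compared at the 4 matched doses in the 5 lines, 200 tests, of which 48 passed (limma, adjusted over the 200; 24 without the first wells and 31 without the second). No share over pairs of other compounds was computed. Between classes 40 of 120 passed, all with the MEK inhibitor lower: Trametinib against Dabrafenib in 12 of 20 and against PLX4720 in 8, Selumetinib in 8 and 4, and PD318088 in 6 and 2. At 10000 nM 17 of the 30 comparisons between classes passed. Within the MEK class 4 of 60 passed and within the BRAF class 4 of 20.

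All 4 differences within the MEK class had Trametinib lower, at the 2 highest doses. Trametinib and Selumetinib both carry a halogenated aniline but differ in their core, a pyridopyrimidine in Trametinib and a benzimidazole in Selumetinib. In MDA-MB-231, Trametinib was below Selumetinib by 0.65 at 1000 nM (-0.65 ± 0.19, 95% interval -1.01 to -0.28) and by 0.54 at 10000 nM (-0.54 ± 0.19, interval -0.90 to -0.17), and in ZR-75-1 by 0.56 at 10000 nM (-0.56 ± 0.21, interval -0.97 to -0.14; log2, SE, limma adjusted p = 0.00495, 0.0232 and 0.0397). It was below PD318088 in MDA-MB-231 at 1000 nM (-0.48 ± 0.19, interval -0.84 to -0.12, adjusted p = 0.042), and at 10000 nM the wells of the 2 were at 40.8% and 33.2%, and 46.2% and 45.2%, without passing. The other 17 comparisons of Trametinib with Selumetinib differed by 0.323 at most, and their intervals reached 0.730. The other 19 with PD318088 differed by up to 0.446, with intervals up to 0.859. Selumetinib and PD318088 passed in 0 of 20, with differences of up to 0.323 and intervals up to 0.736, so that differences of that size between them could not be detected with 2 wells.

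Dabrafenib was above PLX4720 in 4 combinations, at the 2 lowest doses: at 10 nM in HCC-38 by 0.52 ± 0.16, in SKBR3 by 0.51 ± 0.19 and in BT-20 by 0.42 ± 0.15, and at 100 nM in BT-20 by 0.42 ± 0.15 (log2, SE, limma adjusted p = 0.00929, 0.0361, 0.0352 and 0.0352). At 1000 and 10000 nM 0 of 10 passed. The 16 that did not pass were up to 0.438 in size, with intervals up to 0.830.

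**Figure D4:**
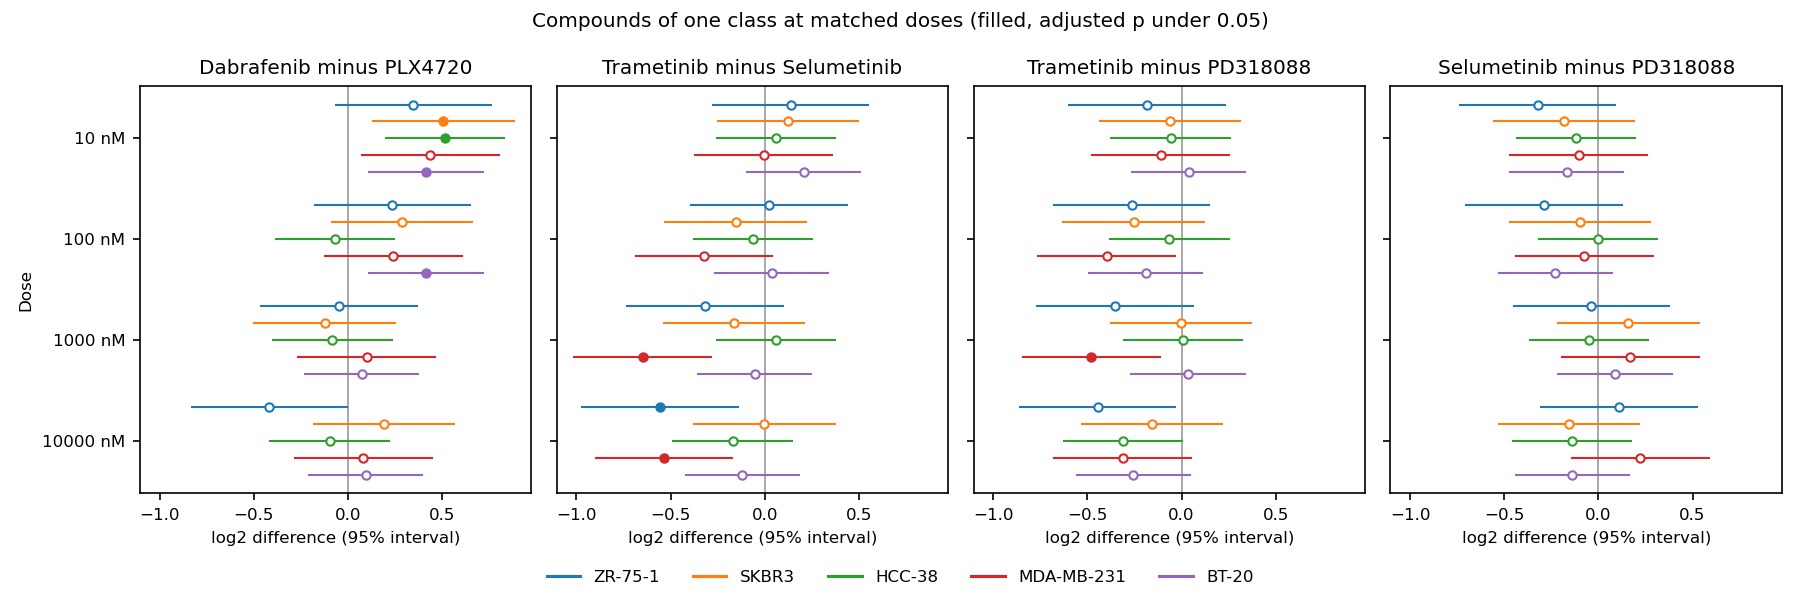
Differences between compounds of the same class (log2 relative cell number, first minus second, with 95% intervals) at each dose, with 1 color per line and filled points where the adjusted p was under 0.05. Filled points are in Trametinib minus Selumetinib (3) and minus PD318088 (1), all to the left of 0, and in Dabrafenib minus PLX4720 (4), all to the right.

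Between the lowest and the highest dose, 9 of 25 combinations of compound and line fell and 0 rose (limma, adjusted over the 25; 4 without the first wells). The same 9 passed when adjusted over all 870 combinations of compound and line, of which 59% fell and 0.460% rose. Trametinib fell in 4 lines, by 1.44 in MDA-MB-231, 1.04 in ZR-75-1, 0.40 in HCC-38 and 0.39 in BT-20 on the log2 scale. PD318088 fell by 1.24 in MDA-MB-231 and by 0.78 in ZR-75-1, and Selumetinib by 0.91 in MDA-MB-231. Dabrafenib fell in ZR-75-1 and HCC-38 (-0.54 and -0.52), from its high values at 10 nM, and PLX4720 in 0 lines. Of the 75 steps between neighboring doses 1 passed, PD318088 in MDA-MB-231 from 1000 to 10000 nM (-0.65 ± 0.19, SE, limma adjusted p = 0.0369).

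The screen also asked whether loss of a stress gene changes the response to a compound. Of the 25 combinations of line and compound, 9 were left by the study's filters, which ask, among other limits, that sgNT be under 90% at the highest dose and at least 25 percentage points below its value at the lowest: Trametinib in all lines but BT-20, PD318088 in ZR-75-1, SKBR3 and MDA-MB-231, Selumetinib in MDA-MB-231 and Dabrafenib in ZR-75-1. Of their 93 differences in AUC between a targeting sgRNA and sgNT, 0 passed in either direction (limma, adjusted over 5150 tests), beside 0% lower and 0.0777% higher among the 5150. At an unadjusted p under 0.05 there were 8, and edgeR on the read counts gave 9 at that level and 0 after adjustment. The guides of the genes named next, which cut at these genes and were read as the sgRNA barcode, were these (5′ to 3′, no base marked, position in the genome not analysed here):
sgATF3: ccagcgcagaggacatccgg
sgATF4: agatgaccttctgaccacgt
sgSLC35F2: catgacagagccatcaacac
sgHSF2: acactaacgagttcatcacc

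The 5 lowest p-values were all higher in the knockout, and none passed. ATF3, a transcription factor induced by stress, gave 281.3 and 242.9 with Trametinib in ZR-75-1, where sgNT was at 177.5 and 154.1 (difference 96.3 ± 25.3, SE, limma adjusted p = 0.185). ATF4, the transcription factor of the integrated stress response, gave 322.2 and 264.7 with PD318088 in MDA-MB-231, beside 225.2 and 191.6 for sgNT (85.1 ± 25.9, adjusted p = 0.252). With the replicate as a block, since knockout and sgNT share wells, this one passed (85.1 ± 17.2, limma adjusted p = 0.0421). It was 1 of the 93, beside 33 of all 5150 in that fit. With the other MEK inhibitors in MDA-MB-231, sgATF4 differed from sgNT by 12.2 (Trametinib) and -23.4 (Selumetinib), without passing. In ZR-75-1, sgATF4 with PD318088 was above sgNT by 69.1 ± 29.6 (SE, limma adjusted p = 0.581), with replicates at 322.5 and 251.8. With Trametinib in ZR-75-1, sgSLC35F2, against a transporter, was at 203.3 and 252.4, and sgHSF2, against a heat shock factor, at 226.7 and 226.1 (limma adjusted p = 0.553 and 0.563).

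All sgRNAs of a combination were set against the same sgNT value, and in 5 of the 9 combinations they lay on 1 side of it. The 9 were kept by limits on these same sgNT wells, low at the highest dose among them. The side on which the sgRNAs lay was thus not independent of that choice, and its part was not tested. With Trametinib, 11 of 11 targeting sgRNAs were above sgNT in MDA-MB-231 (median difference 22.2) and 9 of 9 in ZR-75-1 (42.9), and with PD318088 11 of 11 in MDA-MB-231 (25.4) and 9 of 9 in ZR-75-1 (37.9). In SKBR3 with PD318088 0 of 11 were above (median -63.5), where the sgNT replicates were at 431.4 and 239.9. In DMSO, log2 sgNT cells varied with an SD of 0.475 in ZR-75-1, 0.435 in MDA-MB-231 and 0.356 in SKBR3, beside 0.165 in HCC-38, where the median difference with Trametinib was 5.78; the part of this spread was not tested.

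**Figure D5:**
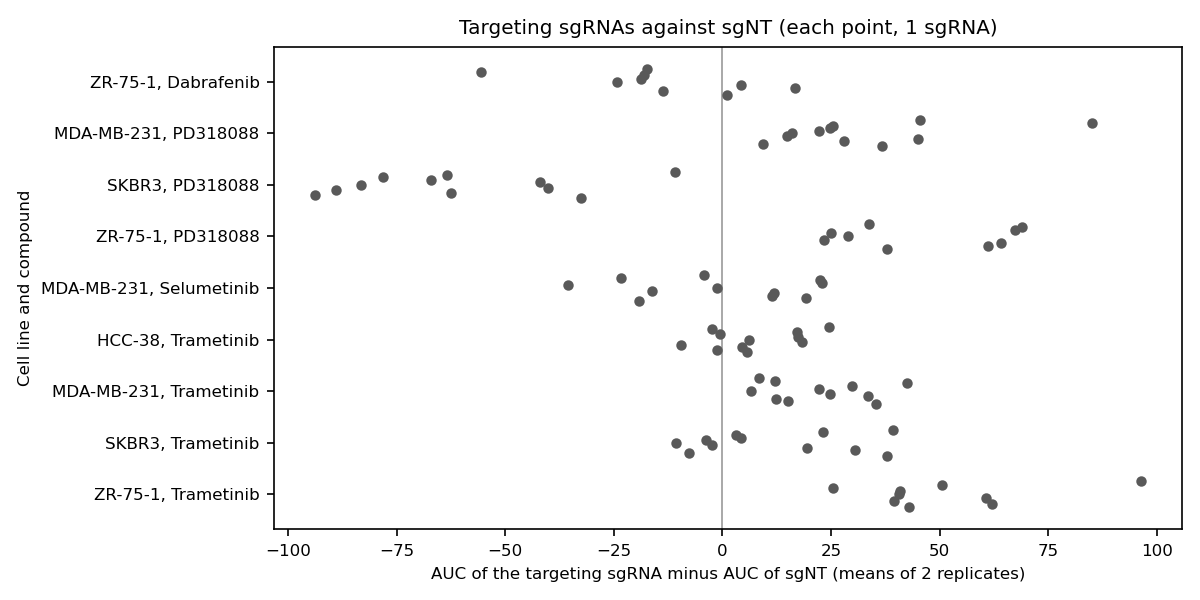
Area under the dose curve of each targeting sgRNA minus that of sgNT (means of 2 replicates) in the 9 combinations of line and compound left by the filters, with a point per sgRNA. In 4 combinations all points lie to the right of 0 and in SKBR3 with PD318088 all lie to the left; 0 of the 93 passed the adjusted test.

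Related kinase inhibitors in the library are given by their AUC alone. GDC0879, a RAF inhibitor, had means of 364.3 for HCC-38, 362.2 for ZR-75-1, 324.3 for BT-20 and 315.1 for SKBR3, and its replicates were at 292.8 and 317.2 in MDA-MB-231. By its mean it thus lay above the nominal 300 of untreated cells in every line, as did Dabrafenib. In MDA-MB-231, however, its replicate at 292.8 was below 300. The DMSO wells of this line averaged 101.5%, so that a mean just above 300 did not set GDC0879 apart from untreated cells there. Its difference from DMSO was not tested. Sorafenib, which inhibits RAF and several receptor kinases, had means between 265.7 in MDA-MB-231 and 330.5 in HCC-38. Regorafenib, which differs from Sorafenib by an added fluorine, had means between 256.5 in MDA-MB-231 and 311.3 in HCC-38. AT7867, an inhibitor of the kinase AKT, had means between 182.8 in HCC-38 and 247.7 in BT-20.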

How the data were processed

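Per the methods, the authors demultiplexed the reads with bcl2fastq and counted each pair of a cell line barcode and an sgRNA barcode with up to 1 mismatch per barcode; the deposited counts are not normalized. The authors also deposited, for all but 6 compounds with few reads, the relative cell number, a ratio times 100 of interpolated cells to the median of the DMSO wells. Values of the DMSO wells were recomputed here from the counts. In each of 1488 wells, log10 reads of the 5 standards, 15 to 1215 cells, were fitted on their log10 cell numbers. The line was then inverted to turn reads into cells. For compound wells this differed from the deposited ratio by at most 5.32e-05 on the log2 scale. No molecular identifiers were used, so reads are not a count of molecules.

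Wells were grouped by compound and dose from the labels, which name the plate of DMSO wells alone, so plate was not fitted. The value of a line was the mean over its sgRNAs (10 in ZR-75-1, without sgHSF1 and sgKEAP1, whose SD of log2 cells was over 0.7 in DMSO). limma 3.58.1 was fitted to log2 percent over all wells, or to AUC, in R 4.3.3 with Benjamini-Hochberg adjustment and a threshold of 0.05. Comparisons of lines or sgRNAs within wells were also fitted with the replicate as a block; replicate differences in AUC correlated between all 10 pairs of lines (r 0.425 to 0.725 over compounds). Knockouts were tested in 488 line-compound pairs left by the study's filters, with edgeR 4.0.16 on counts (sgNT reads as offset) and the methods' t-test as alternatives. The fits of wells against DMSO, of lines by AUC, of knockouts by AUC and of read counts were tried on simulated data. In the simulated wells the lines were drawn independently. The comparisons between classes, between compounds and between doses were not simulated. Other alternatives are given in the closing section.

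The 5 compounds and the lists were chosen with earlier results of these data known. All 5 compounds were described in every line and dose, compound pairs of a class wherever they passed, and knockouts by adjusted p or, with under 5 passing, the 5 lowest p. Raw reads, imaging and the screen in a single line were not analysed here.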

Additional observations from a re-analysis of the deposited data

Results flagged for a closer look

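The difference between the MEK and the BRAF inhibitors was not the same in all lines by a test of that difference within wells (limma, 20 tests). On the log2 scale, the departure from the other 4 lines at 10000 nM was -0.71 in MDA-MB-231, -0.32 in ZR-75-1, 0.22 in BT-20, 0.39 in HCC-38 and 0.42 in SKBR3. At 1000 nM it was -0.31 in MDA-MB-231, 0.42 in SKBR3 and 0.14 in BT-20, at 100 nM 0.18 in SKBR3, and at 10 nM -0.14 in BT-20. By AUC, Trametinib departed from the other lines by -55.4 in MDA-MB-231, -25.8 in ZR-75-1, 31.6 in SKBR3 and 28.1 in BT-20.

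Outside the main measurement, 7 of the 40 wells had a larger share of reads on barcode pairs that were never made than all DMSO wells (0.924% at most). The highest was 2.34%, in the first PD318088 well at 1000 nM, and 6 of the 7 were PD318088 wells. The seventh was the second Selumetinib well at 1000 nM, at 0.964%. With 2 wells per dose, single wells far from their group could not be tested.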

How the results depend on the processing

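Of the counts of calls recomputed under the alternatives, 26 moved by over 1.5 times and the others did not. With sgNT alone in place of the mean over sgRNAs, 14 combinations fell against DMSO and 1 rose, 1 line departed downward and 1 upward in the class difference, 14 pairs of compounds differed, 4 combinations fell from the lowest to the highest dose, and by AUC 0 lines were lower and 0 higher. With all 12 sgRNAs in ZR-75-1, 1 line was lower and 1 higher by AUC, and with the DMSO wells of the same dose and replicate label 1 was lower. Leaving out 1 replicate gave 15 to 18 falls and 1 to 5 rises against DMSO (1 without replicate 1), 10 to 11 class differences, 24 to 31 different pairs and 4 to 8 falls with dose; the knockouts and the AUC tests had then no residual degrees of freedom. Leaving out a compound, added after the data were seen, left 8 class differences without Dabrafenib, and without PLX4720 2 downward and 3 upward departures of a line, and without Trametinib 2 downward. The differences that turned sign were within error: without Dabrafenib, SKBR3 at 10 nM (0.0443) and 1000 nM (-0.0419) and MDA-MB-231 at 10 nM (0.0163), and without Selumetinib SKBR3 at 1000 nM (-0.0341). With the replicate block, 5 lower and 7 higher lines were called by AUC and 1 knockout was higher, and the counts of the other comparisons did not change (24 falls and 5 rises against DMSO, 16 class differences). For knockouts, the median of the sgRNAs as reference gave 1 higher call, PD318088 in MDA-MB-231 with sgATF4 (57.8, limma adjusted p = 0.0328), and the methods' t-test gave 2 higher at its own threshold and 0 after Benjamini-Hochberg adjustment. Without the second wells at 1000 nM, 19 class differences kept their call and 1 lost it. The causes were not tested.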
